A study of Mus musculus with 237 samples.

Results

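The genes described here are 29 genes of sterol and fatty acid synthesis, out of 55335 genes counted in single cells of mouse embryonic skin. They were chosen by name. They comprise 17 enzymes of the mevalonate and sterol pathway, 4 genes of the SREBP axis, 3 genes of acetyl-CoA supply and sterol transport, and 5 fatty acid genes. All 29 had a count in at least 1 cell, and each was matched by its Ensembl identifier.

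Skin cells of C57BL/6N embryos at E14.5, carried by surrogate ICR mothers, were sequenced singly. The labels describe 237 cells. Of these, 66 came from 3 wild-type embryos and 171 from 7 p63 (Trp63) knockout embryos, in which the gene had been cut by Cas9 in the zygote, so that each knockout embryo is its own founder. WT epidermis was freed from dermis with dispase before trypsin, whereas knockout fetuses went directly into trypsin. Cells negative for PI, CD45, TER119 and CD140a were sorted, and the cDNA libraries were screened by qPCR for the wanted lineage, by Krt5 in WT and by Krt8 in the knockout. Genotype, preparation and screening can therefore not be told apart in this design.

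Columns of the deposited counts carry run names alone. Only 16 columns could be paired with a labelled cell, all from embryo WT01, namely 11 keratinocytes of the basal layer (WT-KCB), 4 labelled by high K17 (WT-KCP) and 1 of the intermediate layer (WT-KCI). For all 237 columns the cells were therefore also described by state, using marker levels in counts scaled to equal column totals (counts per 1000000, CPM). A basal column had Krt5 and Krt14 at 300 or more and Krt8 under 100. A suprabasal column had Krt1 and Krt10 at 1000 or more. A simple column had Krt8 and Krt18 at 100 or more with Krt5 and Krt14 under 100, and a mesenchymal column had Col1a1 and Col3a1 at 100 or more. These states held 54, 8, 66 and 79 columns, 3 columns met the rules of more than 1 state (2 of them basal and suprabasal), and 33 met none. All 11 WT-KCB and all 4 WT-KCP cells met the basal rule, and the WT-KCI cell met the suprabasal rule. The states are ranges of marker levels and not groups of the study, and the embryo and genotype of the other columns are not used here. The labels hold 45 WT-KCB cells, 50 knockout cells of the surface ectoderm remnant (p63 KO-SER), 28 p63 KO-SKH cells and 70 knockout fibroblasts. They name no WT fibroblast and no WT cell of the surface ectoderm remnant. States are therefore likely to differ also in genotype, preparation and screening, and these cannot be told apart from state here. Because cells are not replicates, no test was made, and each comparison is given by its values over columns, by the CPM of the summed counts, and by a size rule of 2-fold. The 95% exact Poisson intervals of summed counts cover counting error only, since these reads carry no molecular identifiers.

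Total counts lay between 2701500 and 19197138 per column (median 6938031). Trp63, the targeted gene, was at 10 CPM or more in all 54 basal columns, 7 of 8 suprabasal, 49 of 66 simple and 2 of 79 mesenchymal columns. Pdgfra, which encodes the CD140a antigen that the sort removed, was at 10 CPM or more in 66 of 79 mesenchymal columns. In 10 mesenchymal columns the muscle markers Des, Myog and Acta1 summed to over 100 CPM. Of the adipocyte markers, Adipoq was at 0 in every state and labelled group, Plin1 and Fabp4 were at or below 0.0259 CPM in the summed columns, and Pparg was at 20.8 CPM in the summed mesenchymal columns. Of the sebocyte markers, Mgst1 stood at 2988 CPM in the suprabasal and 73.0 in the basal columns, whereas Soat1 stood at 0.128 and 18.9, Far2 at 5.41 and 12.03, and Mc5r and Awat2 at 0 in both. CT010467.1, a gene rich in rRNA reads, took over 10% of the counts in 5 simple columns.

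Cholesterol is built from acetyl-CoA through mevalonate, isoprenoid units and squalene, which is closed to lanosterol and then trimmed to the final sterol. The transcription factors SREBP-1 and SREBP-2 raise the genes of this route and of fatty acid synthesis when sterols in the endoplasmic reticulum are low. SCAP escorts them out of that membrane, and INSIG proteins hold them back. In the epidermis, cholesterol and very long chain fatty acids are, with ceramides, the lipids of the permeability barrier that differentiating keratinocytes lay down.

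The promoter sequences of 5 members are shown because they hold the letter motifs that the whole set can be read against. Each line gives the 250 bases before the start of the gene from RefSeq on GRCm38.p6, 5′ to 3′ on the strand of the gene, with motif matches on either strand in capitals. Hmgcs1 encodes HMG-CoA synthase, Mvk mevalonate kinase and Cyp51 lanosterol demethylase, while Srebf2 encodes SREBP-2 and Insig1 a protein that retains SCAP.
Hmgcs1, chr13:119690101-119690350, plus strand: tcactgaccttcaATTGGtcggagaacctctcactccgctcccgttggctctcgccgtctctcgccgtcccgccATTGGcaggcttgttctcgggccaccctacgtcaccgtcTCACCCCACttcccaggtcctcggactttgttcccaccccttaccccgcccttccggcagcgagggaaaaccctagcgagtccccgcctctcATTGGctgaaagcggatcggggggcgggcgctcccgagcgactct
Mvk, chr5:114444019-114444268, plus strand: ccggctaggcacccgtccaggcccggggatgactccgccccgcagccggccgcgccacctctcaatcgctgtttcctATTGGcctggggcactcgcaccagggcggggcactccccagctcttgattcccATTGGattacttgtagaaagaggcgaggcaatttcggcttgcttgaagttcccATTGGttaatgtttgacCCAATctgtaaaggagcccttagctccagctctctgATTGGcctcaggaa
Cyp51, chr5:4104698-4104947, minus strand: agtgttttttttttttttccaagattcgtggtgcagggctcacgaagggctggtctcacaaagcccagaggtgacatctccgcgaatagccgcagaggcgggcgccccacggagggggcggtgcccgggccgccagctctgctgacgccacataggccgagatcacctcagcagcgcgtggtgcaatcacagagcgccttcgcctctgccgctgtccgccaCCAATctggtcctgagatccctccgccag
Srebf2, chr15:82147019-82147268, plus strand: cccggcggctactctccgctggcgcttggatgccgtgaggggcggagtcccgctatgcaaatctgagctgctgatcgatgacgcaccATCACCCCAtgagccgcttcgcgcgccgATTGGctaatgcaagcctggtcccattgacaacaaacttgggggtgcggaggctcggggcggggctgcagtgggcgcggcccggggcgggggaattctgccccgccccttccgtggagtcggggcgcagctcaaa
Insig1, chr5:28071162-28071411, plus strand: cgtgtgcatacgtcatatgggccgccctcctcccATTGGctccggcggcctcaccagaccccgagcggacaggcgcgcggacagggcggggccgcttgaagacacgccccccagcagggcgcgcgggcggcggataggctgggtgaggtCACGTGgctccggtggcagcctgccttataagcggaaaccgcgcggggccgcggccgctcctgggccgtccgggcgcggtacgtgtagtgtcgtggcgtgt
In these lines ATTGG is the CCAAT box read on the other strand, CACGTG is an E-box, and TCACNCCAC and ATCACCCCA are forms of the sterol regulatory element, which overlap in a run of letters that holds both. The Hmgcs1 line holds TCACNCCAC 137 bases before the start and CCAAT boxes at 237, 176 and 45 bases. The Srebf2 line holds ATCACCCCA at 163 bases and a CCAAT box at 135 bases. The Mvk line holds 5 CCAAT boxes, the Cyp51 line 1 CCAAT box at 29 bases, and the Insig1 line an E-box at 101 bases and a CCAAT box at 216 bases. RefSeq windows of 300 bases, 250 before and 50 after the start, were matched for 23 of the 29 members, and Fdps, Fdft1, Sqle, Stard4, Scd1 and Scd2 were not matched. CCAAT lay in the windows of 20 of 23 members (87.0%), and in those of 41.1% of 27025 genes. The 3 matched members without CCAAT were Acaca, Acat2 and Scap. CACGTG lay in 5 of 23 members (21.7%), Hsd17b7, Sc5d, Dhcr7, Insig1 and Scap, and in 8.09% of all genes. TCACNCCAC lay in 1 member (4.35%) and 1.44% of all genes, and ATCACCCCA in 1 member and 0.318% of all genes. A match of letters is a description and not a shown binding site.

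Levels between genes are compared per kb of exon. In the summed basal columns, CPM per kb of exon was 109.6 for Acly, which makes cytosolic acetyl-CoA from citrate, and 101.6 for Acat2, which joins acetyl-CoA units. Below them came Hmgcs1 at 52.9, Srebf2 at 34.5 and Scd2, a stearoyl-CoA desaturase, at 31.2. Of the values above 0, 74.15% carried a fraction for Acat2, 53.59% for Hmgcs1 and 53.16% for Acly, and 23.2% over all genes. How the counting gave these fractions is not known, which limits these levels. At the low end stood Scd1 with 0.552, Stard4, a sterol carrier, with 0.807, and Acaca, the acetyl-CoA carboxylase, with 1.58. Between the states, 17 of the 29 genes had their highest summed CPM in the suprabasal columns, 8 in the mesenchymal, 4 in the simple and 0 in the basal columns. Over the 13710 genes with at least 5 CPM in any state, the shares were 23.1%, 25.03%, 28.8% and 23.1% in the same order. The basal columns had the lowest summed CPM for 17 of the 29, and for 12.9% of those genes.

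**Figure D1:**
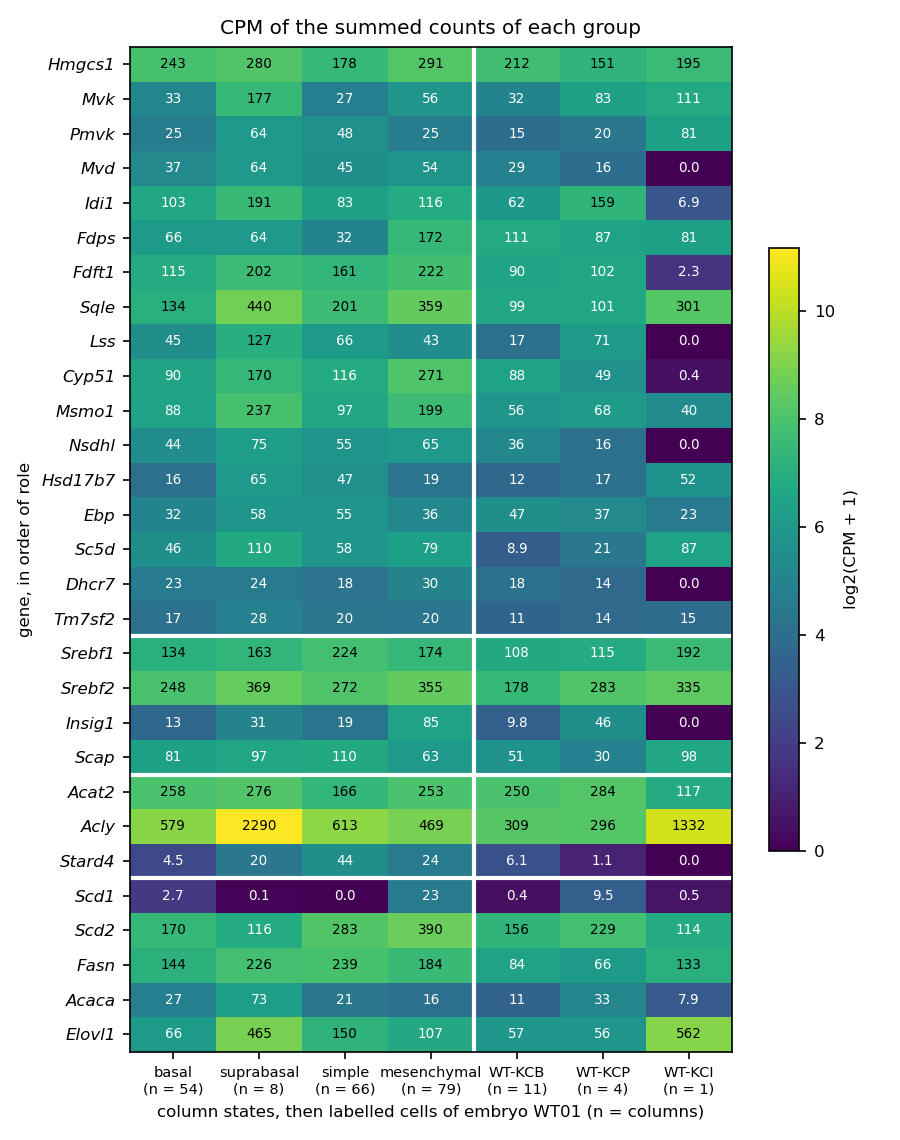
CPM of the summed counts of each of the 29 genes (rows, ordered by role) in the 4 column states and in the labelled cells of embryo WT01, coloured by log2(CPM + 1), with n the number of columns. Acly is brightest in the suprabasal columns, at 2290 CPM against 579 in the basal columns, and Scd1 is at 22.6 CPM in the mesenchymal and 2.702 in the basal columns.

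WT-KCB and WT-KCP were compared within embryo WT01, as cells labelled by the basal layer and by high K17, the product of Krt17. The study calls the latter keratinocytes of the periderm, the outermost covering of the embryonic skin. Of the periderm markers, Krt17 stood at 2923 summed CPM in WT-KCP and 96.1 in WT-KCB and Grhl3 at 79.2 and 6.56, whereas Sfn stood at 262.6 and 237.1, Krt6a at 0.342 and 1.32 and Krt4 at 0 in both. The 5 markers summed to a median of 3389 and 312.8 CPM, and all 4 WT-KCP cells met the basal rule. The 6 cell cycle genes summed to a median of 4487 CPM in WT-KCP and 1337 in WT-KCB, and the immediate early and heat shock genes Fos, Jun, Egr1, Hspa1a, Hspa1b and Atf3 to 819 and 1971. Their part in the member levels was not tested. The sum of the 17 sterol enzymes was 306.6 to 2456 CPM (median 728.5) over the 11 WT-KCB cells and 808 to 1333 (median 928.5) over the 4 WT-KCP cells. The WT-KCP range lay inside the WT-KCB range. Lss, the cyclase that forms lanosterol, was at 0, 30.5, 90.1 and 139 CPM in the WT-KCP cells, and at 0 to 127 with a median of 0 in WT-KCB, where 2 of 11 cells reached 10 CPM. Its log2 ratio with 1 CPM added was 2.03. Mvk was at 0, 41.3, 134 and 141 CPM in the WT-KCP cells against 0 to 77.1 (median 27.1) in WT-KCB, a log2 ratio of 1.35. Both genes overlapped between the groups.

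The regulator Srebf2 was at 160.9, 265, 281 and 391 CPM in WT-KCP and at 57.4 to 340.1 (median 195.8) in WT-KCB. Acaca was at 2.48, 20.5, 41.3 and 59.8 CPM in WT-KCP and at 0 to 79.1 (median 1.21) in WT-KCB, a log2 ratio of 1.54. The groups overlapped for each of them. Among genes with at least 5 CPM in either group, 7 of 29 members were at least 2-fold higher in WT-KCP (Mvk, Idi1, Lss, Sc5d, Insig1, Scd1 and Acaca) and 2 were at least 2-fold lower (Nsdhl and Stard4). Scd1 and Stard4 passed the filter through the higher group alone. Over all 12214 genes so filtered, 17.1% were higher and 18% lower by this rule. The median log2 ratio was 0.17 over the members and -0.02 over all genes. In no member did every WT-KCP cell stand above or below every WT-KCB cell, which 0.311% and 0.0819% of all genes did. Without the WT-KCP cell WT01CELL012, 3 members were at least 2-fold higher and 4 lower. The share over all genes without that cell is not given. Of 50 other lipid genes, 40 passed the filter. Of these, 9 were at least 2-fold higher and 11 lower in WT-KCP, where 17.1% and 18% of all genes were. The 5 with the largest ratio were Mylip (59.03 against 0.84 summed CPM), Lpin1 (14.4, 0.046), Me1 (12.9, 0.14), Abcg1 (25.4, 2.85) and Abca12 (11.3, 0.84). Each was under 5 CPM in WT-KCB, and Me1 was at 0 in 3 of 4 WT-KCP cells.

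For 4 of the 9 members past 2-fold, the ratio changed sign without 1 cell. Leaving out 1 cell also brought the log2 ratio of Idi1 to 0.38, of Nsdhl to -0.60, of Mvk to 0.90 and of Acaca to 0.94, all under 2-fold. Lss alone of the 9 stayed past 2-fold, at 1.25 or more. Insig1 was at 149 CPM in WT01CELL012 and at 0 in the other WT-KCP cells, and its log2 ratio was -3.44 without that cell. Sc5d, the lathosterol desaturase, was at 86.4 CPM in WT01CELL011 and below 1 CPM in the others, with a log2 ratio of -3.07 without it. Scd1 was at 40.5 CPM in WT01CELL010 and 0 in the others, with a log2 ratio of -0.45 without it. Stard4 was at 62.8 CPM in 1 WT-KCB cell, WT01CELL009, and its log2 ratio turned from -1.74 to 0.49 without that cell. The WT-KCI cell, the only labelled cell of the intermediate layer, had 1332 CPM of Acly, above the 139 to 509 of all 15 other labelled cells. It also had 562 CPM of Elovl1, an elongase of very long chain fatty acids, where the other labelled cells had 1.94 to 132.

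**Figure D2:**
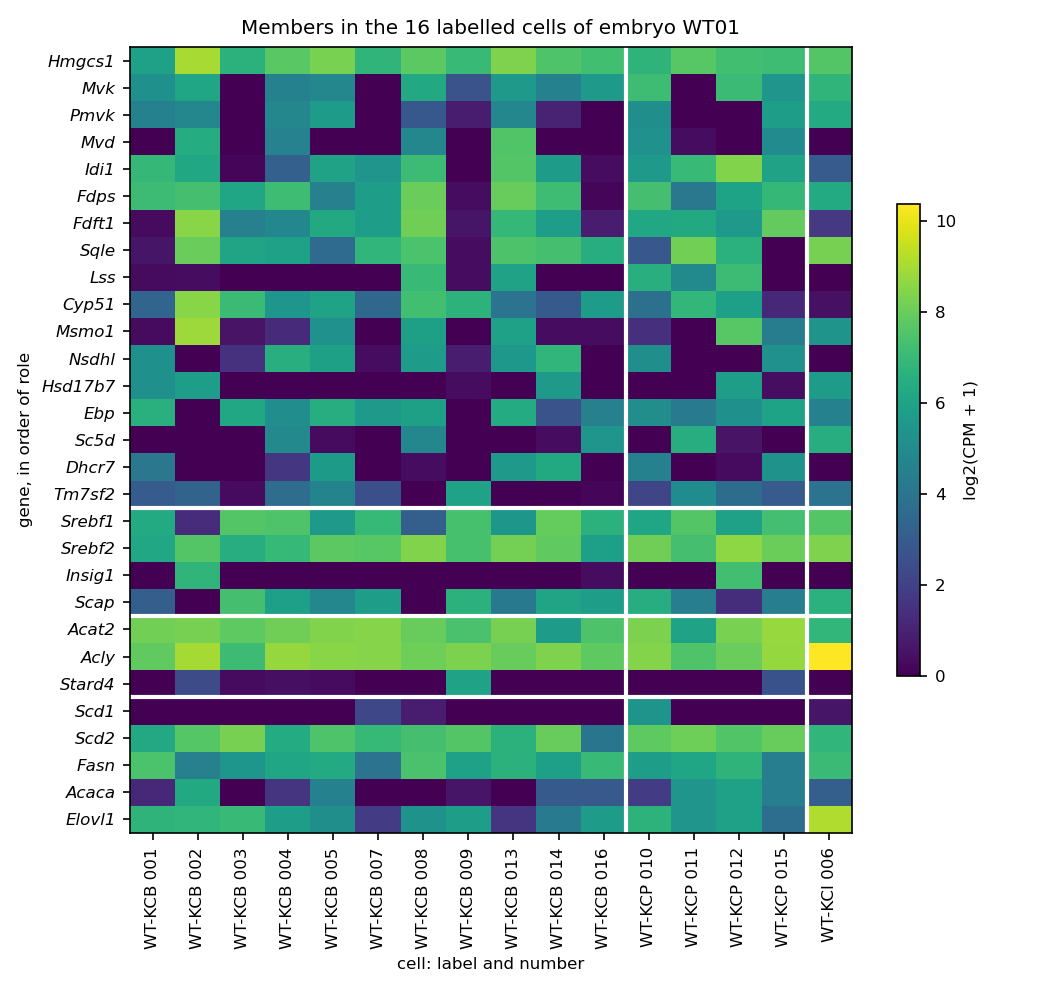
Level of each member, as log2(CPM + 1), in the 11 WT-KCB, 4 WT-KCP and 1 WT-KCI cells of embryo WT01, with cells in columns and genes in order of role. Many sterol enzymes are dark in some cells and bright in others of the same label, and Acly and Elovl1 are brightest in the WT-KCI cell, at 1332 and 562 CPM.

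The suprabasal columns, of keratinocytes with Krt1 and Krt10, had higher levels than the basal columns for much of the pathway. Of the 28 members with at least 5 CPM in either state, 12 were at least 2-fold higher and 0 were at least 2-fold lower. Over all 11834 genes so filtered, 12% were higher and 25.4% were lower. The median log2 ratio was 0.85 over the members and -0.20 over all genes, and 26 of the 28 ratios were above 0. Stard4 passed the filter through the suprabasal columns alone, and Scd1 did not pass.

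Of the 3 genes of acetyl-CoA supply and sterol transport, Acly (chromosome 11, 100476353 to 100528000, GRCm38) had the largest log2 ratio. Its level was 849.4 to 3515 CPM (median 2815) over the 8 suprabasal columns and 1.59 to 3483 (median 386) over the 54 basal columns. The summed levels were 2290 CPM (Poisson interval 2278 to 2302) and 579 CPM (576.6 to 581.0), a log2 ratio of 1.98. The suprabasal column was the higher in 96.1% of the pairs of 1 suprabasal and 1 basal column, and the high end of the basal range came from a column that met both rules. Acat2, in contrast, stood at 276 and 258.5 summed CPM.

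Among the sterol enzymes, 7 of 17 were at least 2-fold higher in the suprabasal columns, 0 were lower, and 10 lay between. Mvk (chromosome 5, 114444269 to 114460591) was at 97.1 to 306 CPM (median 151) in the suprabasal columns and at 0 to 140.9 (median 26.1) in the basal columns. The summed levels were 177 CPM (173.4 to 180.0) and 33.4 CPM (32.8 to 33.9), a log2 ratio of 2.37. No suprabasal column was without Mvk, whereas 15 of 54 basal columns were at 0. Pmvk, the next kinase of the route, was present at 35.03 CPM or more in all 8 suprabasal columns, with a log2 ratio of 1.33. Sqle (chromosome 15, 59315077 to 59331192), the squalene epoxidase, was at 121 to 687 CPM (median 335) in the suprabasal and 0 to 687 (median 84.4) in the basal columns. Its log2 ratio was 1.70, from summed levels of 440 and 134 CPM.

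Later steps showed the same direction with more overlap. Lss stood at 127 against 45.2 summed CPM (log2 ratio 1.47), and Msmo1, the sterol methyl oxidase, at 237 against 88.3 (1.41). Hsd17b7, the sterol ketoreductase, stood at 65.2 against 16.4 summed CPM (1.93), and Sc5d at 110 against 45.7 (1.25). The other 10 enzymes lay under 2-fold. Hmgcs1, the first enzyme of the list, had summed levels of 280 and 243 CPM, Fdps, the farnesyl diphosphate synthase, 63.6 and 65.9, and Dhcr7, which completes cholesterol in one of the branches, 23.7 and 23.2. The sum of the 17 enzymes was 995.3 to 4637 CPM (median 1941) in the suprabasal columns and 252.6 to 4637 (median 799.5) in the basal columns. These ranges overlapped, and their common top value came from a column in both states.

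Of the SREBP axis, Insig1 was higher by the size rule, at 30.8 against 12.6 summed CPM (log2 ratio 1.23), but 4 of 8 suprabasal columns were at 0, and leaving out 1 suprabasal column lowered the ratio to 0.37. Srebf2 stood at 369 against 248 summed CPM, Srebf1 at 163 against 134 and Scap at 96.9 against 80.8, each less than 2-fold apart. Among the fatty acid genes, Elovl1 (chromosome 4, 118428093 to 118432953) was at 46.1 to 1056 CPM (median 470) in the suprabasal and 0 to 303 (median 54.8) in the basal columns. Its summed levels were 465 CPM (459.5 to 470.3) and 66.2 CPM (65.5 to 66.9), a log2 ratio of 2.79, and the suprabasal column was the higher in 91.7% of the pairs. Acaca had a log2 ratio of 1.41, from 73.5 and 27.03 summed CPM. Fasn, the fatty acid synthase, stood at 225.5 and 144 summed CPM and Scd2 at 116 and 170.3.

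The immediate early and heat shock genes summed to a median of 7823 CPM in the suprabasal and 3609 in the basal columns, and 6 cell cycle genes to 1014 and 2723. The part of these differences in the member levels was not tested. With the 3 columns of more than 1 state left out, 11 members were at least 2-fold higher, and 13.9% of all genes. With the marker thresholds doubled, 7 columns stayed suprabasal, and 9 members and 12.8% of all genes were higher. Lss, Sc5d and Insig1 were then under 2-fold. Insig1 was also the member lost with the 3 columns.

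Of the 50 other lipid genes listed beside the members, 42 passed the filter, of which 16 were at least 2-fold higher and 9 at least 2-fold lower in the suprabasal columns. Their median log2 ratio was 0.60. Over all genes, 12% were higher and 25.4% lower, with a median log2 ratio of -0.20. The 5 other lipid genes with the largest ratio in either direction were Abca12, Fads1, Elovl4, Soat1 and Abca1. Abca12, the lipid carrier of lamellar granules, stood at 229 CPM in the summed suprabasal and 0.908 in the summed basal columns. Elovl4, which makes the ultra long acyl chains of barrier ceramides, stood at 928 and 24.5 CPM. In the other direction Fads1, a desaturase of polyunsaturated fatty acids, stood at 0.0642 and 48.8 CPM, Soat1, which esterifies cholesterol, at 0.128 and 18.9, and Abca1, which exports it, at 0 and 14.1. Where the summed count is 0, the limit taken was the CPM that 3 counts would give, which is 0.0481 CPM in the suprabasal, 0.00649 in the basal and 0.00626 in the mesenchymal columns.

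**Figure D3:**
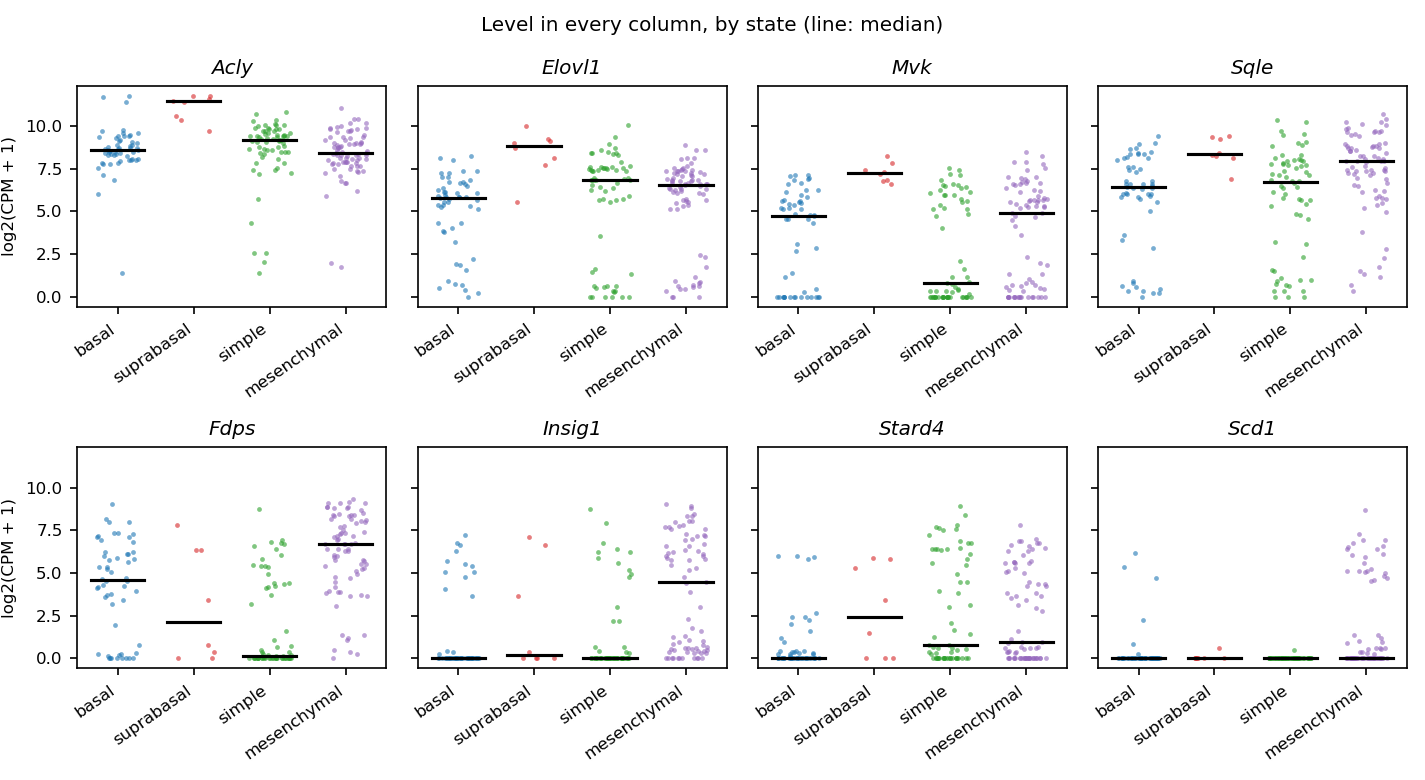
Level of 8 members in every column, as log2(CPM + 1), by state, with 1 point per column, a black line at the median and points spread sideways for view. The suprabasal medians of Acly, Elovl1, Mvk and Sqle, of 2815, 470, 151 and 335 CPM, are the highest of the 4 states, although single columns of other states lie above every suprabasal column for Elovl1, Mvk and Sqle, while Fdps and Insig1 are highest in the mesenchymal columns, and most columns of Scd1 lie at 0.

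The simple columns, with Krt8 and Krt18 and without Krt5 and Krt14, were close to the basal columns over most of the set. Of 28 members past the filter, 3 were at least 2-fold higher, 1 was at least 2-fold lower and 24 lay between. Over all 12388 genes, 16.4% were higher and 12.1% lower. The median log2 ratio was 0.34 over the members and 0.04 over all genes. With median-of-ratios size factors in place of totals, 4 members were higher and 0 lower, and 20.8% and 8.98% of all genes.

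Stard4 had the largest ratio of the tested members. It was at 0 to 487 CPM (median 0.685) over the 66 simple columns and at 0 to 63.9 (median 0) over the basal columns. It reached 10 CPM in 26 of 66 simple and 4 of 54 basal columns, with 44.2 and 4.51 summed CPM and a log2 ratio of 3.04. Stard4 passed the filter through the simple columns alone. Hsd17b7 was at 0 to 290.5 CPM (median 0.475) in the simple and 0 to 130.5 (median 0.168) in the basal columns, reached 10 CPM in 31 of 66 and 13 of 54 columns, and had a log2 ratio of 1.46. Elovl1 was at 0 to 1084 CPM (median 114) in the simple columns, with a summed 150.5 CPM and a log2 ratio of 1.17. The ranges overlapped for all of these.

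Fdps (chromosome 3, 89093588 to 89101959) was the member lower by the size rule. It was at 0 to 434 CPM (median 0.0882) in the simple and 0 to 529 (median 23.1) in the basal columns, and at 0 in 30 of 66 and 8 of 54 columns. The summed levels were 31.5 and 65.9 CPM, a log2 ratio of -1.04, which lay under 2-fold without the 5 columns rich in CT010467.1 reads. Gm43738, on the same strand, shares 26.7% of the exon bases of Fdps, so that the level of Fdps is uncertain by how the counting divided such reads. Of the regulators, Srebf1 stood at 224 against 134 summed CPM and Srebf2 at 272 against 248. Fasn stood at 239 against 144 and Scd2 at 283 against 170.3, all under 2-fold. Scd1 had 2 counts over the 66 simple columns and 4 over the 8 suprabasal columns.

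A summary by medians of single columns gave other counts for this pair of states, with 1 member higher and 8 lower out of 23. By the same summary, 37.4% of all genes were lower. Many members had both columns at 0 and columns far above 10 CPM within a state. Mvk, for example, was at 0 in 24 of 66 simple columns and reached 188.8 CPM in another. The cell cycle genes summed to a median of 277 CPM in the simple and 2723 in the basal columns. The immediate early and heat shock genes summed to 6889 and 3609, and the median number of genes with a count was 9705.5 and 11735. The part of each in these differences was not tested. Of the other lipid genes, 11 of 42 were higher and 4 lower, where 16.4% of all genes were higher and 12.1% lower. Among the 5 with the largest ratio, Fabp5, a fatty acid binding protein of keratinocytes, stood at 35.4 against 866.5 summed CPM and Elovl4 at 2.20 against 24.5, while Elovl7 stood at 24.9 against 3.28, Abcg1 at 31.2 against 4.53 and Fads3 at 5.14 against 0.

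The mesenchymal columns, defined by the collagen genes Col1a1 and Col3a1, were set against the basal columns. The tissue that they came from is not known. Of 29 members past the filter, 8 were at least 2-fold higher and 0 lower, where 18.1% of all 12653 genes were higher and 18.4% lower. The median log2 ratio was 0.52 over the members and -0.23 over all genes. With size factors in place of totals, 12 members were higher and 0 lower, and 24.1% and 10.8% of all genes. Stard4 and Scd1 passed the filter through the mesenchymal columns alone. The cell cycle genes summed to a median of 703.7 CPM in the mesenchymal and 2723 in the basal columns, and the immediate early and heat shock genes to 2981 and 3609. Their part in these differences was not tested.

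Insig1 (chromosome 5, 28071363 to 28078662) had a log2 ratio of 2.66. It was at 0 to 535 CPM (median 21.3) over the 79 mesenchymal columns and at 0 to 149 (median 0) over the basal columns. It reached 10 CPM in 42 of 79 mesenchymal and 12 of 54 basal columns, and the summed levels were 84.7 CPM (83.9 to 85.6) and 12.6 CPM (12.2 to 12.9). Of the sterol enzymes, 4 of 17 were at least 2-fold higher. Cyp51 was at 0 to 1256 CPM (median 193.8) against 0 to 483.5 (median 54.7), a log2 ratio of 1.58. Fdps was at 0 to 643 CPM (median 102) against 0 to 529 (median 23.1), a log2 ratio of 1.37. Sqle had a median of 246 CPM and a log2 ratio of 1.41, and Msmo1 a median of 116 and a log2 ratio of 1.16. The columns of both states overlapped for each of these genes.

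Both desaturases lie on chromosome 19, Scd2 from 44293674 to 44306864 and Scd1 from 44394455 to 44407879. Scd2 was at 0.620 to 1082 CPM (median 349) in the mesenchymal and 2.02 to 474 (median 161) in the basal columns, with a log2 ratio of 1.19. Scd1 was at 0 to 406 CPM in the mesenchymal columns, with 41 of 79 at 0 and 23 at 10 CPM or more. In the basal columns it was at 0 to 70.1 CPM, with 48 of 54 at 0, and its log2 ratio was 2.67, against 0 by the medians of single columns. In contrast to the suprabasal columns, Acly stood at 469 against 579 summed CPM, Acaca at 15.9 against 27.03 and Lss at 43.1 against 45.2, all under 2-fold. Of the other lipid genes, 16 of 41 were higher and 5 lower, where 18.1% of all genes were higher and 18.4% lower. Among the 5 with the largest ratio, Pparg, an adipogenic regulator, stood at 20.8 against 0 summed CPM, Fads3 at 21.2 against 0 and Me1, which makes NADPH, at 28.6 against 2.77, while the ceramide genes Sptlc3 and Cers3 stood at 0.00418 against 12.8 and 0.0251 against 11.5. With the 10 columns rich in muscle markers left out, 8 members were higher and 0 lower.

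Set against the simple columns, the mesenchymal columns had 6 of 29 members at least 2-fold higher and 1 lower, where 17.6% of all 12983 genes were higher and 22.8% lower. The median log2 ratio was 0.38 over the members and -0.22 over all genes. The cell cycle genes summed to a median of 703.7 CPM in the mesenchymal and 277 in the simple columns, and the immediate early and heat shock genes to 2981 and 6889, and their part was not tested. Fdps had a log2 ratio of 2.41, from 172 and 31.5 summed CPM, and was at 0 in 1 of 79 mesenchymal and 30 of 66 simple columns. Insig1 had a log2 ratio of 2.09, Cyp51 of 1.23, Msmo1 of 1.02 and Mvk of 1.01. Scd1 had 10826 counts in the mesenchymal and 2 in the simple columns, a log2 ratio of 4.56 with 1 CPM added. Without the added CPM, the ratio of summed CPM was 6410, with an exact counting interval of 1774 to 52930. That interval leaves out the spread over columns, and 1 mesenchymal column held 17.75% of the counts. Scd1 passed the filter through the mesenchymal columns alone. Of these, 41 of 79 were at 0, so that the log2 ratio of the medians of single columns was 0. Hsd17b7 was the member lower by the size rule, with 18.6 against 46.9 summed CPM and a log2 ratio of -1.29. Without the 5 simple columns rich in CT010467.1 reads, 4 members were higher and 1 lower, with Mvk and Msmo1 under 2-fold. Of all genes, 17.7% were then higher and 21.9% lower. Of the other lipid genes, 18 of 43 were higher and 7 lower. Among the 5 with the largest ratio, Mylip stood at 38.1 against 3.995 summed CPM, while Sptlc3 stood at 0.00418 against 48.8, Cers3 at 0.0251 against 41.7, Abcg1 at 0 against 31.2 and Elovl7 at 0.964 against 24.9.

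**Figure D4:**
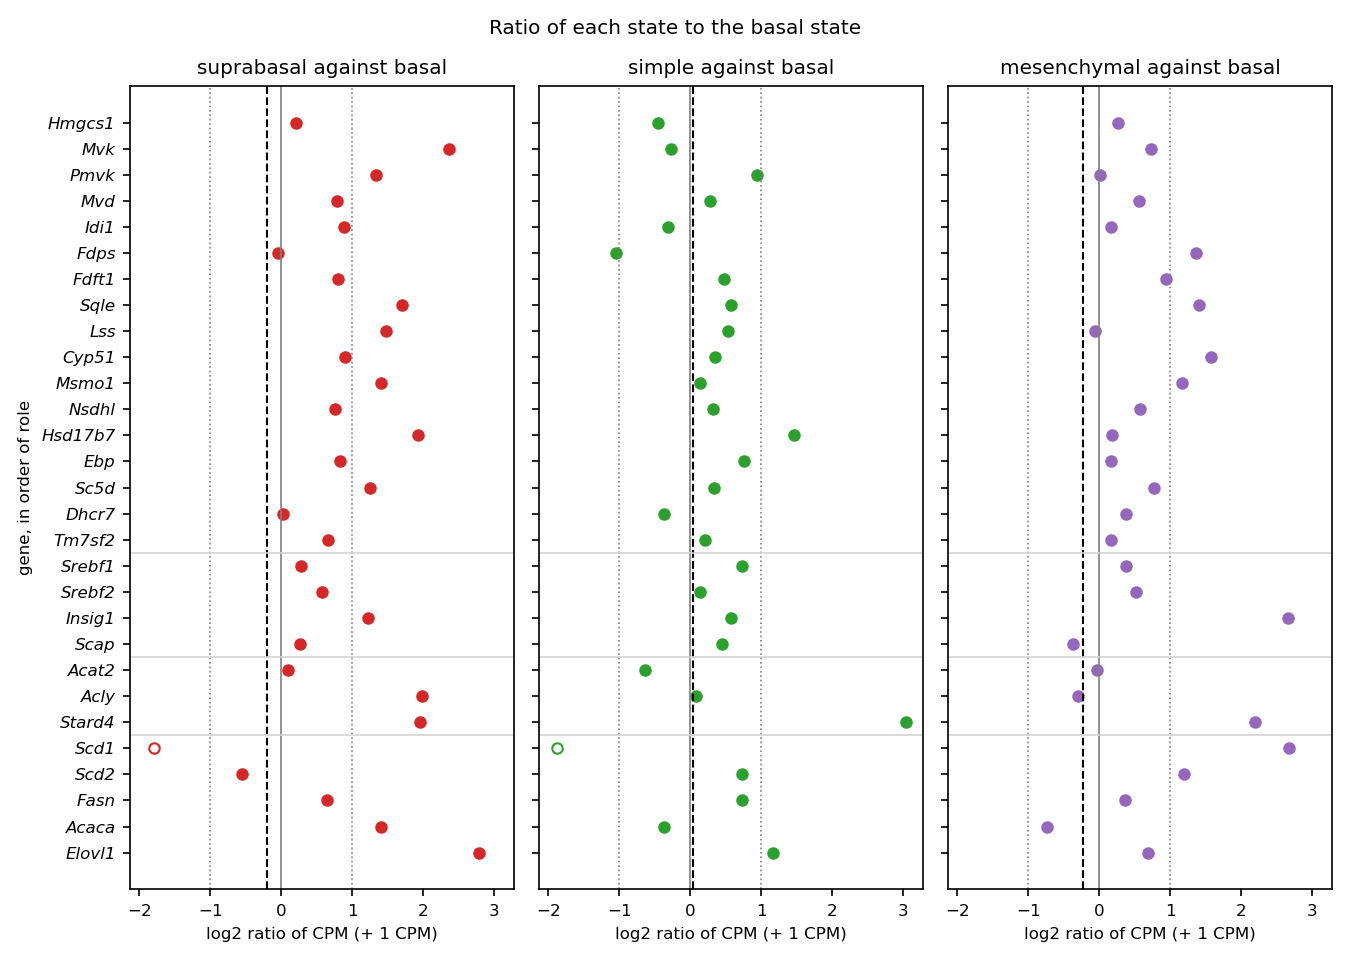
Log2 ratio of summed CPM, with 1 CPM added, of each member in the suprabasal, simple and mesenchymal columns against the basal columns, with genes in order of role. Dotted lines mark 2-fold, the dashed line the median over all filtered genes and open circles a gene under the filter of 5 CPM. Most suprabasal points lie right of 0 (26 of 28), and Elovl1, Mvk and Acly lead there, where Insig1, Scd1 and Stard4 lead in the mesenchymal panel.

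Of the 28 members that passed the filter in all 3 comparisons with the basal columns, 13 stayed within 2-fold each time, as did 44.2% of the 11290 genes so filtered. These were Hmgcs1, Mvd, Idi1, Fdft1, Nsdhl, Ebp, Dhcr7, Tm7sf2, Srebf1, Srebf2, Scap, Acat2 and Fasn. Stard4 was at least 2-fold higher by summed CPM each time, as were 1.19% of the 11290 genes. It passed the filter each time through the other state alone, being at 4.51 summed CPM in the basal columns, and by the median of single columns it was under 2-fold against simple (log2 ratio 0.75) and mesenchymal columns (0.96). The 3 comparisons share the basal columns.

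Within a state, the members were compared by rank over columns. In the 54 basal columns, the median Spearman rho between pairs of sterol enzymes was 0.21, and 123 of 136 pairs were above 0. Pairs of 1 sterol enzyme and 1 fatty acid gene had a median of 0.17, with 74 of 85 pairs above 0. The 10 pairs of fatty acid genes had a median of 0.09, with 7 above 0. Hmgcs1 with Fdft1, the squalene synthase, had the highest rho of the pairs, 0.63, and Idi1, the isoprenoid isomerase, with Sqle a rho of 0.59. The sum of the 17 enzymes had a rho of 0.62 with Srebf2, 0.51 with Insig1 and 0.50 with the sum of the fatty acid genes. It had a rho of -0.31 with the total count, -0.25 with the sum of the immediate early and heat shock genes and 0.05 with that of the cell cycle genes. In the 66 simple columns, the median rho between sterol enzymes was 0.13, with 103 of 136 pairs above 0, and the sum had a rho of 0.34 with Srebf2 and 0.21 with Insig1. Hmgcs1 with Fdft1 had a rho of 0.67 there. The columns of a state come from an unknown mix of embryos, and values scaled by 1 total share that total, so these are descriptions. Pairs of all genes were not set beside them, so whether other genes share such rho values was not tested.

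**Figure D5:**
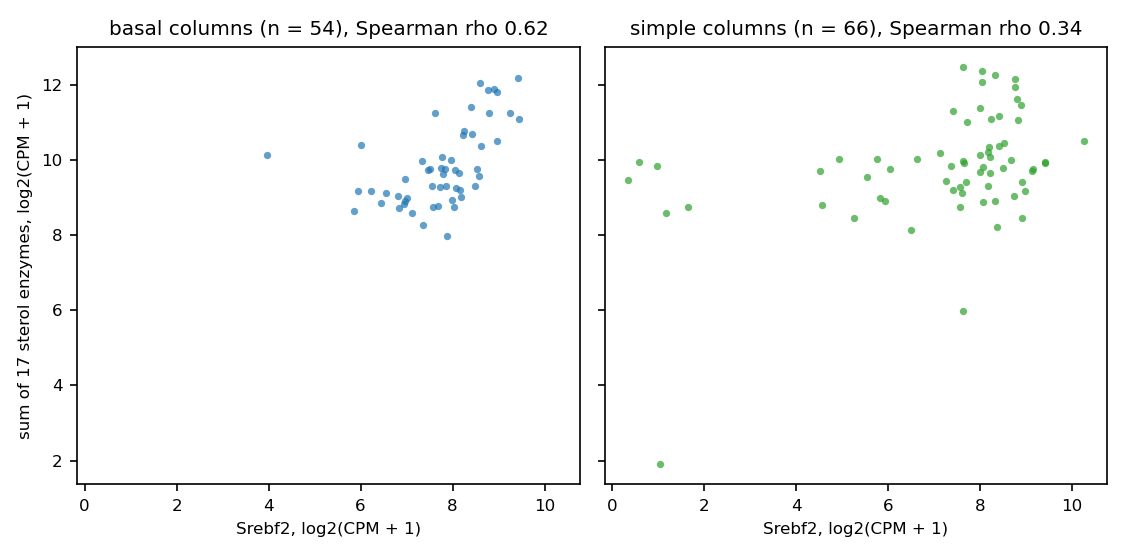
Sum of the 17 sterol enzymes against Srebf2, both as log2(CPM + 1), with 1 point per column, in the 54 basal and 66 simple columns. The points slope upward in the basal columns (Spearman rho 0.62) and in the simple columns (0.34), where a column with a sum of 2.74 CPM stands far below the others.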

How the data were processed

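The authors prepared SMART-Seq HT and Nextera XT libraries without molecular identifiers, trimmed the reads with Trimmomatic, mapped them with HISAT2 (genome mm10) and assigned them to Ensembl genes by featureCounts. The deposited values are estimated counts, not normalized. Whether counting used strand or reads with several alignments is not given in the sources used here. Of the values above 0, 23.2% carried a fraction, and all were rounded. Of 237 columns, 16 were paired with a cell through the study's supplementary table, and 221 were not. Counts were divided by the column total (CPM) or, for a group, by the summed totals. Genes with at least 5 CPM in either group were compared by log2 ratio with 1 CPM added. No doublet caller was run, and no 2 columns were identical. All 29 members were named, and of 50 other lipid genes the 5 with the largest absolute log2 ratio in each comparison. The members and lists were chosen with earlier results of these data known. The ratio was run on simulated counts with known fold changes. That simulation did not model the many columns at 0 seen here, so it checks the calculation alone. Gene positions and exon lengths came from GENCODE on GRCm38, and promoters from RefSeq. Software was Python 3.11.15 with pandas 2.3.3, numpy 2.4.6, matplotlib 3.10.9 and scipy 1.17.1. Alternatives changed the counts' rounding, the summary over cells, the scaling (size factors, or totals without 3 abundant genes), the filter, the pseudocount (0.1 CPM), the marker thresholds and the columns used. Leaving out columns rich in CT010467.1 reads or muscle markers was chosen after seeing the data.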

Additional observations from a re-analysis of the deposited data

Results flagged for a closer look

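In the 4 WT-KCP cells, the gap from the highest cell to the next exceeded 0.829 of the whole range, Dixon's 95% critical value for 4 values, for 7 members. These were Fdft1 at 235.6 CPM against 77.8, Msmo1 at 205.5 CPM against 19.9, Hsd17b7 at 53.9 CPM against 0.315, Sc5d at 86.4 CPM against 0.445, Insig1 at 149 CPM against 0, Stard4 at 5.2 CPM against 0, Scd1 at 40.5 CPM against 0 in the next cell. In the 8 suprabasal columns, the gap exceeded 0.526 of the range for 5 members, Idi1 at 770.6 CPM against 360.4, Fdps at 225.5 CPM against 81, Hsd17b7 at 241.1 CPM against 110.2, Dhcr7 at 80.3 CPM against 29.7, Acat2 at 804.7 CPM against 361.9 in the next column. By chance the value is exceeded in about 5% of groups of normally spread values, and many members were at 0 in some cells. Insig1, Stard4 and Scd1 were at 0 in 3 of the 4 WT-KCP cells, where the gap is the whole range. The rule was applied to the members alone, so no share over all genes stands beside these counts.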

How the results depend on the processing

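The counts of members past 2-fold came from cells without replicates, and they rest on few columns in WT-KCP and the suprabasal state. Leaving out each labelled cell in turn gave 3 to 8 members higher and 1 to 4 lower in WT-KCP, with 3 higher without WT01CELL012, 4 lower without any 1 of the WT-KCP cells, and 1 lower without WT01CELL004, WT01CELL009 or WT01CELL014. The log2 ratio then ranged from -3.07 to 1.70 for Sc5d, -3.44 to 5.51 for Insig1, -0.45 to 3.43 for Scd1 and -2.83 to 0.49 for Stard4, with the sign turned without the cell that held most of its counts. Leaving out each suprabasal column gave 9 to 16 members higher and 0 to 1 lower. For the mesenchymal columns, leaving out each column of the smaller state gave 8 to 9 higher and 0 to 0 lower against basal, and 4 to 7 higher and 1 to 1 lower against simple. The shares over all genes without single cells or columns are not given. By the mean of single cells, 1 member was lower in WT-KCP, as were 17.5% of all genes. By the median of single cells, 1 of 27 members was lower in suprabasal against basal, where 25.7% of all genes were. In simple against basal that median gave 1 higher and 8 lower of 23, and 7.77% and 37.4% of all genes. In mesenchymal against simple it gave 10 of 23 higher, and 31.9% of all genes. Size factors left 0 lower in simple against basal, as did doubled thresholds and leaving out the columns rich in CT010467.1 reads. Without a filter, 1 was lower in suprabasal against basal and 2 in simple against basal, and 18.6% and 7.48% of all genes. Size factors moved the median log2 ratio of all genes by 0.42 in mesenchymal against basal and by 0.21 in the other comparisons of the simple and mesenchymal columns. Of 115 values recomputed without leaving out single columns, 105 stayed within 1.5-fold. Some of them could not move, since halved thresholds left the same 54 basal, 8 suprabasal and 66 simple columns. Of the ratios of single members so recomputed, 689 moved by more than the counting error of the main ratio and 964 did not. The depth floor of 1000000 counts and 4000 genes removed no column. Of the 10 highest members by CPM in the basal columns, 9 were also among the 10 highest per kb. The cause of these changes was not tested. No paired analysis was possible because the labelled cells came from 1 embryo.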

Other observations

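The 33 columns that met no marker rule had summed levels of 756 CPM for Acly, 254 for Scd2, 249 for Srebf2, 162.5 for Elovl1, 155.5 for Sqle and 149 for Hmgcs1. Acly was at 3.94 to 2636 CPM (median 609.5) over these columns, and Stard4 at 0 to 183 (median 0.355). Acaca, Dhcr7 and Tm7sf2 were at 11.5, 11.8 and 8.14 summed CPM there.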
